A study of Mus musculus with 24 samples.

Results

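Cholesterol synthesis and its control by SREBP2 were followed in mouse liver through 7 genes chosen by name for their place in the pathway: Srebf2, Insig1, Insig2, Hmgcs1, Sqle, Lss and Cyp51. They were chosen with earlier results of these data known. They are 7 of the 52636 genes in the count tables, and all 7 passed the filter on low counts and were among the 15490 genes tested. RNA bound to polysomes, that is, messenger RNA carrying several ribosomes, was sequenced from livers of C57BL/6 mice aged 5 months. The calorie-restricted mice (CR) had received 30% fewer calories for 3 months, beginning at 2 months of age, and the comparison mice fed freely (ad libitum, AL). Collection was at zeitgeber times (ZT, hours after lights on) 2, 6, 10, 14, 18 and 22 h, which gave 12 groups of 2 libraries. When in the day CR mice received food is not stated in the labels, and none of these says that the 2 libraries of a group came from separate animals, so the p-values measure the spread between these libraries. Total RNA was not analysed here, so transcript amount and loading onto polysomes cannot be told apart.

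Cholesterol is built from acetyl-CoA through mevalonate, squalene and lanosterol, and the liver is a main site of its synthesis. SREBP2, the product of Srebf2, is a transcription factor made as a membrane protein of the endoplasmic reticulum. When sterols are low, the escort protein SCAP carries it to the Golgi, where proteases release the active part, which raises transcription of nearly every enzyme of the pathway and of Insig1. When sterols are high, INSIG1 and INSIG2 hold SCAP back. Hmgcs1 encodes the cytosolic HMG-CoA synthase, Sqle squalene epoxidase, Lss lanosterol synthase and Cyp51 lanosterol demethylase, 4 enzymes along 1 route.

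The binding sites of SREBP2 and its partners lie close to the start of known target genes. Promoter letters are therefore shown for 5 of the 7 genes. They are 120-base stretches from RefSeq on GRCm38.p6, read on the gene's strand and ending upstream of every annotated transcript start of that gene. Capitals mark TCACCNCA (sterol-type word), CCAAT (read by NF-Y), GGGCGG (read by Sp1) and CACGTG (E-box), each on either strand, so that ATTGG and CCGCCC are the reverse forms.
Hmgcs1, chr13:119690184-119690303, plus strand: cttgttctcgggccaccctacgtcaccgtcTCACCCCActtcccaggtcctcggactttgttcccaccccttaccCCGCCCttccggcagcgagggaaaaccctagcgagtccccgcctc
Cyp51, chr5:4104747-4104866, minus strand: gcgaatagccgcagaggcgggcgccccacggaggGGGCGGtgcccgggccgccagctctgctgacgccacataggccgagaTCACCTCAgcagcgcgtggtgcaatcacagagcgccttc
Srebf2, chr15:82147061-82147180, plus strand: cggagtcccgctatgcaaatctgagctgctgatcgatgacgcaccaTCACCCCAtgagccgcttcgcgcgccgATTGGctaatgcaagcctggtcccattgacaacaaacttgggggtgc
Insig1, chr5:28071243-28071362, plus strand: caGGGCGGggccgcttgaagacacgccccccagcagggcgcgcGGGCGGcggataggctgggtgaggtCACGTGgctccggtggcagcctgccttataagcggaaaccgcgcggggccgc
Insig2, upstream start, chr1:121332590-121332709, minus strand: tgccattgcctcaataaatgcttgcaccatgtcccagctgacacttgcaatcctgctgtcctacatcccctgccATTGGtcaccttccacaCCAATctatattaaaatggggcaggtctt

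The table holds promoters of 6 of the 7 genes, with 3 starts for Insig2. Lss is the gene of these 6 that is not printed above, and it holds no TCACCNCA. Within the 250 bases before the start, the words TCACNCCAC and TCANNCCAC were searched first and matched Hmgcs1 alone of the 6, 137 bases before its start. They occur in 1.05% and 3.52% of all 32851 promoters of the same length. Neither word matched any of 13 other enzymes of cholesterol synthesis or 5 other SREBP2 targets with a promoter there. The shorter TCACCNCA was added after the sequences had been seen, overlaps the first word in Hmgcs1, and also matched Srebf2 and Cyp51. It matched 1 of the 13 other enzymes (Hsd17b7) and 0 of the 5 other targets, and occurs in 3.61% of all promoters. CCAAT and GGGCGG each occurred near at least 1 start of all 6 genes, with the 3 starts of Insig2 pooled, and each in 12 of the 13 other enzymes. Counted singly, 33.8% and 32.7% of all promoters hold them. Of the 6 genes, Insig1 alone had CACGTG, which 3 of the 13 other enzymes and 6.02% of promoters hold. A match says only that these letters are present.

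The library CR ZT6 2 stood apart for this pathway and is described before the comparisons, since it enters every CR mean at ZT6 and every average over time. Levels are in CPM, read counts scaled to a common library total with composition factors. In CR ZT6 2 Sqle had 3.65 CPM (55 reads), whereas the other 23 libraries held 32.9 to 104 CPM. Lss had 1.86 CPM (28 reads, exact 95% interval 1.24 to 2.69 for counting error only), against 10.2 to 84.5 CPM in the other libraries. Cyp51 was at 16.2 CPM there and at 67.6 to 269.8 CPM elsewhere. The 3 enzymes thus lay well below the range of the other 23 libraries.

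Hmgcs1 had 49.3 CPM in CR ZT6 2, against 66.1 to 958 CPM in the other libraries. Insig1 showed the same picture, with 16.9 CPM against 115 to 606 CPM elsewhere. For Srebf2 itself the distance was smaller, 8.30 CPM against 10.5 to 37.0 CPM. Insig2 went the other way: CR ZT6 2 had 424 CPM, the highest of the 24 libraries (as for 5.3% of all tested genes), though barely above the 418 CPM of AL ZT2 1. The log2 ratio of Insig2 to Insig1 was 4.65 in CR ZT6 2, against -2.97 to 0.19 in the other CR libraries and -1.96 to 0.10 in AL.

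**Figure D1:**
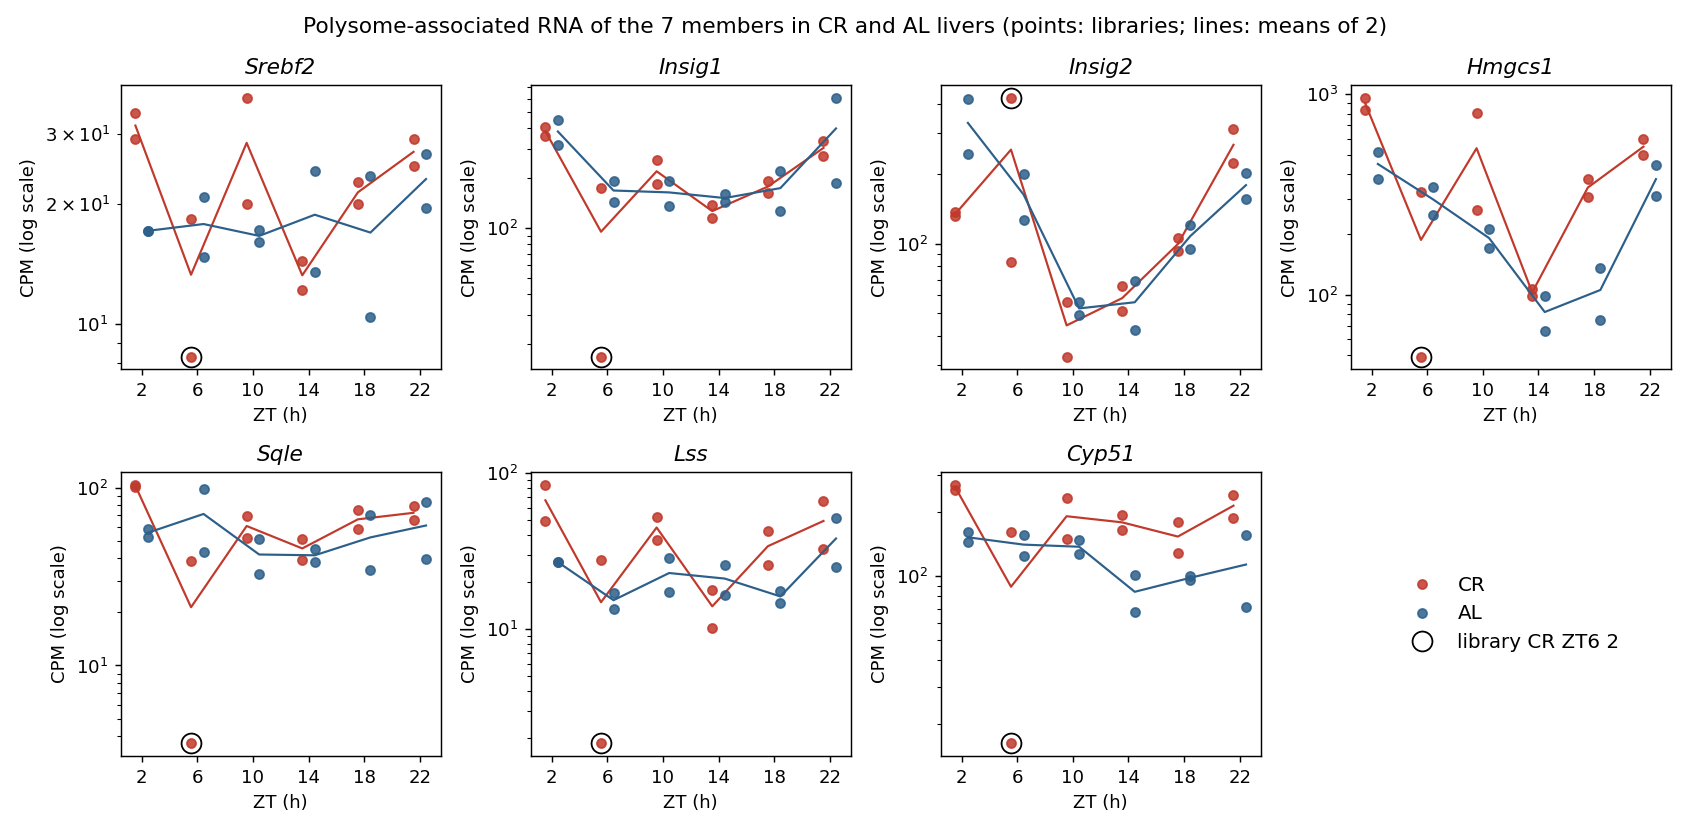
CPM on a log axis of the 7 genes at 6 zeitgeber times in h, with CR in red left of AL in blue, 1 point per library and lines through the means of 2. The ringed library CR ZT6 2 lies lowest of all 24 for 6 genes and highest for Insig2, and Insig2 is low at ZT10 and ZT14 in both diets.

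Most other enzymes of the pathway were low in CR ZT6 2 as well. Of 17 other enzymes of cholesterol synthesis, 14 had their lowest level of the 24 libraries in it, and Lbr and Ebp were among the exceptions. Mvd, mevalonate diphosphate decarboxylase, lay 3.97 log2 units below the median of the other libraries. All 7 tested other targets of SREBP2 were lowest there as well. Of all 15490 tested genes, 6.59% were lowest in CR ZT6 2. In no other library were more than 1 of the 17 enzymes or any of the 7 targets lowest.

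Genes that act upstream of the pathway lay nearer to the other libraries. The median of 14 genes of SREBP processing and sterol-regulated degradation was -0.07 log2 units from the other libraries. Still, 4 of the 14 were lowest there, 28.6% against 6.59% of all tested genes. Scap was slightly above their median, by 0.20. Srebf1, which encodes the related factor SREBP1 of fatty acid synthesis, was the largest exception at -3.19, with 17.5 CPM in CR ZT6 2 against 72.1 CPM or more elsewhere. None of 8 hepatocyte markers was lowest there. The summed hepatocyte markers came to 58267 CPM, inside the range of the other libraries, and 49.0% of its 19.7 M counted reads were from features that collect ribosomal RNA, against 52.5% of 16.5 M reads in CR ZT6 1.

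CR ZT6 1, the other library of the group, held none of these extremes: Sqle had 38.8 CPM, Lss 28.0, Cyp51 162, Hmgcs1 327, Insig1 173 and Insig2 83.5 CPM. The 2 libraries of CR ZT6 thus differed widely for this pathway, and no group mean describes both. Over all tested genes their levels had a rank correlation (Spearman, across genes) of 0.944, the second lowest of the 12 groups.

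**Figure D2:**
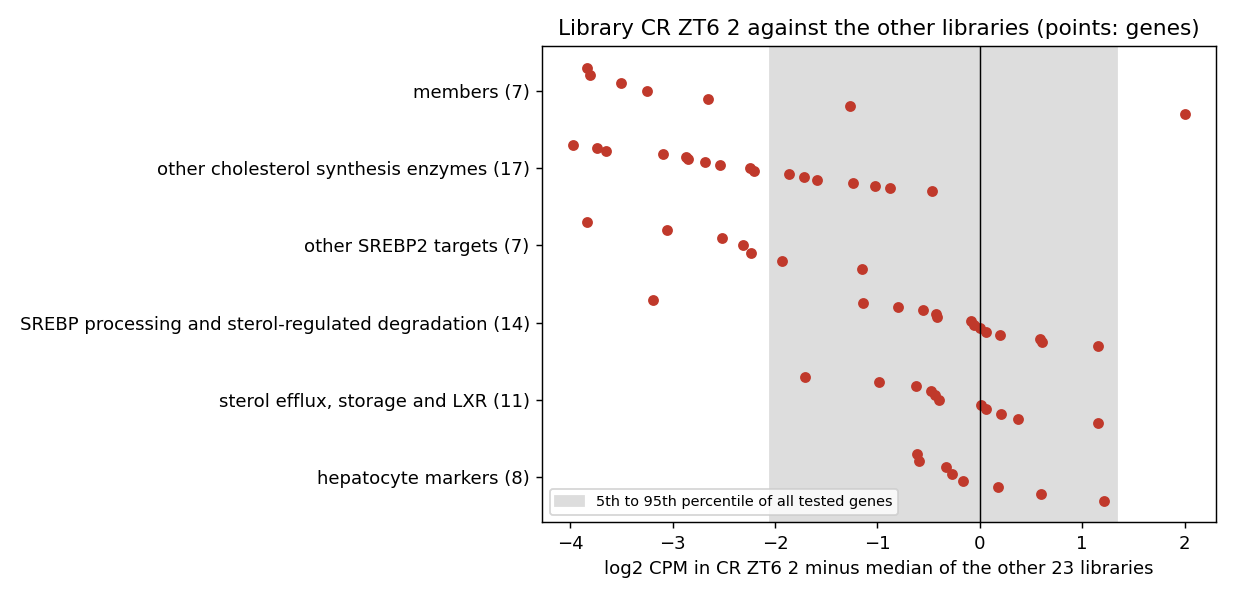
Each point is 1 gene, placed by its log2 CPM in CR ZT6 2 minus the median of the other 23 libraries, in rows of 6 gene lists with the number of tested genes in brackets. The enzymes and targets of SREBP2 lie to the left, many beyond the grey 5th to 95th percentile band of all tested genes. The medians of processing genes and hepatocyte markers lie around 0, at -0.07 and -0.22, though Srebf1 is far to the left.

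**Figure D3:**
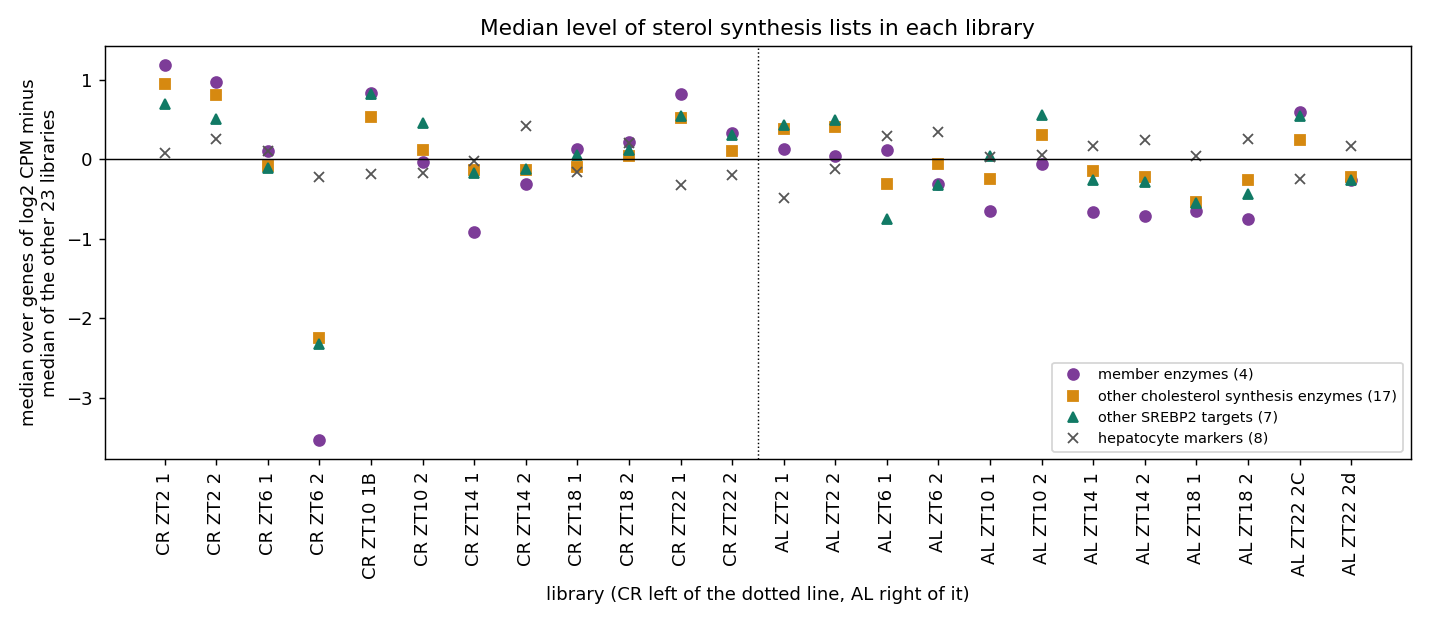
For each of the 24 libraries (CR left of AL), the median over a list's genes of log2 CPM minus the median of the other 23 libraries. The 4 enzymes among the 7 genes (member enzymes, circles) are at -3.53 in CR ZT6 2 and above -1 in every other library.

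Between the diets, averaged over the 6 time points, Hmgcs1 was the only 1 of the 7 genes to pass the test. In CR its level was 833 and 958 CPM at ZT2, 327 and 49.3 at ZT6, 809.7 and 265 at ZT10, 98.8 and 107 at ZT14, 308 and 377 at ZT18, and 595 and 499.6 at ZT22. In AL it was 518 and 379.9 CPM at ZT2, 346 and 251 at ZT6, 171 and 213 at ZT10, 66.1 and 98.3 at ZT14, 136 and 75.2 at ZT18, and 444 and 311 at ZT22. Both CR libraries were above both AL libraries at every time but ZT6, at ZT14 only by 98.8 against 98.3 CPM. At each of those times taken singly, 16.6% to 25.9% of all tested genes were so placed. The averaged change was 0.73 ± 0.23 log2 units (SE; edgeR quasi-likelihood test, Benjamini-Hochberg over all tested genes, adjusted p = 0.0446). The same test called 12.7% of all tested genes, 5.6% as higher in CR and 7.05% as lower, so 1 call among 7 is near the background.

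Cyp51 averaged 181 ± 68.3 CPM in CR and 121 ± 33.1 CPM in AL (SD over 12 libraries each). Its change of 0.54 ± 0.24 did not pass (edgeR adjusted p = 0.142), nor did that of Lss, 0.52 ± 0.27 (edgeR adjusted p = 0.232). Lss ranged from 1.86 to 84.5 CPM in CR, with a median of 35.0, and from 13.6 to 51.3 CPM in AL, with a median of 21.3. Sqle, whose product adds oxygen to squalene, had medians of 62.0 CPM in CR and 48.2 CPM in AL, with a change of 0.06 ± 0.25 (edgeR adjusted p = 0.946). For these 3 enzymes the CR and AL ranges overlapped.

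Srebf2 had a lowest, median and highest level of 8.30, 21.4 and 37.0 CPM in CR, against 10.5, 17.2 and 26.7 CPM in AL, and a change of 0.22 ± 0.17 (edgeR adjusted p = 0.456). Insig1, the sterol-responsive retention protein, had medians of 188 CPM in CR and 190.0 CPM in AL, and changed by -0.17 ± 0.25 (edgeR adjusted p = 0.748). Insig2 had medians of 99.5 CPM in CR and 123 CPM in AL and changed by -0.06 ± 0.20 (edgeR adjusted p = 0.912). None of the 3 controllers passed the test, and the sign of Insig1, Insig2 and Sqle turned when single libraries were left out.

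These averages moved when CR ZT6 2 was left out. That library was picked out because 6 of the 7 genes were lowest in it. Leaving it out raises the CR averages of those 6 by construction, so the values without it are no separate test of the diets. Without it, 3 of the 7 genes were higher in CR: Hmgcs1 by 0.86 ± 0.18 (edgeR adjusted p = 0.00279), Cyp51 by 0.68 ± 0.15 (edgeR adjusted p = 0.00453) and Lss by 0.66 ± 0.18 (edgeR adjusted p = 0.0195), where 4.67% of all tested genes were called higher. Insig2 then changed by -0.34 ± 0.15 (edgeR adjusted p = 0.180). Without the other library of that group, CR ZT6 1, Hmgcs1 changed by 0.40 (edgeR adjusted p = 0.163), and Insig1 became the only call of the 7, at -0.59 (edgeR adjusted p = 0.0394), in a fit where CR ZT6 2 alone stands for its group and is assumed to vary like the others. Of the 24 fits that each left out 1 library, 19 lost the call of Hmgcs1, with adjusted p between 0.0520 and 0.163, while its direction held in all 24.

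**Figure D4:**
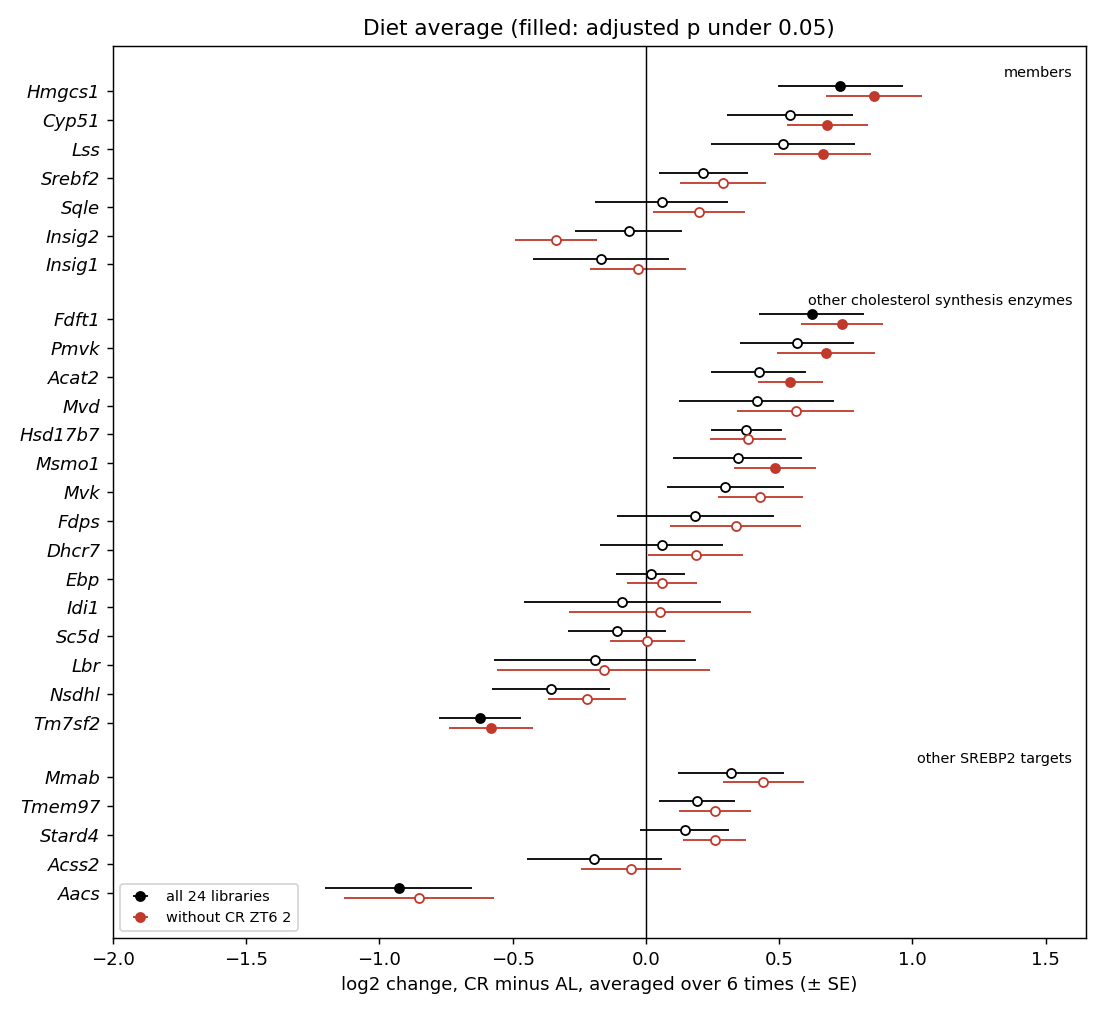
Change on the diet average in log2 units, CR minus AL, with its SE, for the 7 genes, 15 other enzymes and 5 other SREBP2 targets, with all 24 libraries in black and without CR ZT6 2 in red; filled points passed the test. Most enzymes lie right of 0, with Hmgcs1 and Fdft1 filled in black, and Tm7sf2 and Aacs lie to the left. CR ZT6 2 was picked out for low levels of these genes, so the red points are no separate test.

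The rest of the pathway was read from lists of genes that are known members. Among the 17 other enzymes, 2 were higher in CR (11.8%), 1 was lower (5.88%) and 14 did not pass. Over all tested genes 5.6% were called higher and 7.05% lower, so calls of 1 or 2 genes in a list this short are near the background. The median change of the 17 was 0.23 against -0.02 for all tested genes. Fdft1, squalene synthase, which stands just before Sqle, rose by 0.62 ± 0.20 (edgeR adjusted p = 0.0399), a call kept in 6 of the 24 fits with 1 library left out. Tm7sf2, a sterol reductase whose step Lbr can also perform, fell by 0.62 ± 0.15 (edgeR adjusted p = 0.00940) and was called in 33 of 34 alternative fits. It had a lowest, median and highest level of 56.2, 81.9 and 186 CPM in CR, against 81.2, 124 and 212 CPM in AL. Without CR ZT6 2, which was picked out for its low levels of these enzymes, 14 of the 17 changes were positive, with a median of 0.34. Of all tested genes in that fit, 46.9% had a positive change, with a median of -0.04. Acat2, Pmvk, Fdft1 and Msmo1 then changed by 0.54, 0.68, 0.74 and 0.49, and Tm7sf2 by -0.58. Without CR ZT6 1 the median of the list was -0.06.

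Genes that process SREBP or degrade its targets had 1 of 14 higher, 1 lower and a median change of -0.12. These 2 calls are 7.14% each, near the 5.6% and 7.05% of all tested genes. Marchf6, a ubiquitin ligase that acts on squalene epoxidase, rose by 0.54 ± 0.16 (edgeR adjusted p = 0.0316, 0.0628 without CR ZT6 2), a call kept in 11 of 24 fits with 1 library left out. Erlin1, a membrane protein of the endoplasmic reticulum with a part in sterol-regulated degradation, fell by 0.51 ± 0.13 (edgeR adjusted p = 0.0104). Scap changed by -0.32 ± 0.13 (edgeR adjusted p = 0.113) and Srebf1 by -0.20 ± 0.23 (edgeR adjusted p = 0.633). Neither of these passed.

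Of 7 tested targets of SREBP2 outside the pathway, none was higher and Aacs, which activates acetoacetate for lipid synthesis, was lower, by 0.93 log2 units ± 0.27 (edgeR adjusted p = 0.0290, and 0.0556 without CR ZT6 2). That call was kept in 17 of 24 fits with 1 library left out. Among 11 tested genes of sterol efflux, storage and the oxysterol receptor LXR, 2 were higher (18.2%) and 1 was lower (9.09%). The 1 lower target made 14.3% of its list, and over all tested genes 5.6% were called higher and 7.05% lower. Abcg8, a subunit of the transporter that moves sterols into bile, rose by 0.51 ± 0.16 (edgeR adjusted p = 0.0427). Soat2, which esterifies cholesterol in hepatocytes, rose by 0.58 ± 0.18 (edgeR adjusted p = 0.0337), and Soat1, its relative of macrophages and other cells, fell by 0.85 ± 0.27 (edgeR adjusted p = 0.0401). With 1 library left out, the call of Abcg8 was kept in 10 of 24 fits, that of Soat2 in 12 and that of Soat1 in 10, and their edgeR adjusted p reached 0.135, 0.115 and 0.240 over all alternatives.

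Several things moved with diet beside these genes. All 8 Kupffer cell markers changed, 7 lower in CR and Marco higher, and their summed level was 66.5 to 125 CPM in CR and 122 to 407 CPM in AL. The summed hepatocyte markers were 44039 to 94775 CPM in CR and 36522 to 75949 CPM in AL, with 1 of 8 higher and 1 lower. Stellate cell markers had 4 of 8 higher, endothelial markers 1 of 6 higher and 1 lower, and none of 5 cholangiocyte markers was called. Over all tested genes 5.6% were called higher and 7.05% lower. Summed acute phase transcripts were 1879 to 4271 CPM in CR and 1005 to 35470 CPM in AL. No marker was at 0 in every library, and the part of these shifts in the sterol genes was not tested. In bulk tissue, fewer cells of a type and less RNA per cell cannot be told apart.

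At single time points none of the 7 genes passed edgeR's test at any of the 6 times, with 0 calls by DESeq2 as well. Unadjusted p was under 0.05 for 2 of them at ZT2, 1 at ZT6, 1 at ZT10, 0 at ZT14, 1 at ZT18 and 0 at ZT22. Of 15490 tested genes, 1157 had this at ZT2, 2123 at ZT6, 1669 at ZT10, 2203 at ZT14, 1634 at ZT18 and 2211 at ZT22. Calls were few over all tested genes, 0.562% at ZT2, 0.387% at ZT6, 0.742% at ZT10, 1.7% at ZT14, 0.562% at ZT18 and 0.936% at ZT22. The values still differ in pattern between times, and they are given as a description.

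At ZT2 both CR libraries exceeded both AL libraries for 5 of the 7 genes. Sqle had 101 and 104 CPM in CR, against 58.4 and 53.0 CPM in AL. Lss had 84.5 and 49.6 CPM in CR, against 26.8 and 27.1 CPM in AL. Cyp51 had 253 and 269.8 CPM in CR, against 160.4 and 144 CPM in AL. The remaining pair above was Hmgcs1, and Srebf2 with 33.8 and 29.2 CPM in CR and 17.1 and 17.2 CPM in AL. Insig2 was the 1 gene below, with 132 and 136 CPM in CR and 418 and 244 CPM in AL, a change of -1.30 ± 0.50 (edgeR adjusted p = 0.504). Of all tested genes, 23.2% had both CR libraries above and 27.1% both below at this time.

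The same 5 genes were above in CR at ZT10, where 16.6% of all genes were. Sqle had 69.2 and 52.3 CPM there in CR and 32.9 and 51.2 CPM in AL, and Srebf2 20.1 and 37.0 CPM in CR and 17.3 and 16.1 CPM in AL. At ZT14, Hmgcs1 and Cyp51 were above (22.8% of all genes) and Insig1 below (22.3%), with 137 and 115 CPM of Insig1 in CR and 160.3 and 143 CPM in AL. At ZT18, Hmgcs1, Lss and Cyp51 were above (17% of all genes). At ZT22, Insig2, Hmgcs1 and Cyp51 were above (25.9% of all genes), Insig2 with 310.4 and 222 CPM in CR and 156 and 201 CPM in AL. At ZT6, Sqle alone was below (22.3% of all genes) and none was above (19.5%).

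A test for a change of the diet difference over the day called 0 of the 15490 genes and none of the 7 (1337 genes at an unadjusted p under 0.05, 188 genes and none of the 7 with DESeq2). The adjusted p for the 7 ran from 0.611 for Hmgcs1 to 0.936 for Insig1 in edgeR. With CR ZT6 1 left out, CR ZT6 2 stood alone for its group, so the difference at ZT6 was then -4.29 log2 units for Sqle, -3.12 for Cyp51 and -2.60 for Hmgcs1. These are values of 1 library already picked out as lowest for these genes; its spread is taken from the other groups, and the calls of such a fit are no test of the diets at ZT6. With CR ZT6 2 left out, none of the 7 was called at ZT6, and Insig2 changed by -0.97 in place of 0.64 (edgeR adjusted p = 0.497 and 0.576). The ZT6 comparison thus rests on which of the 2 libraries is used.

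Time of day showed most clearly in Insig2, the only 1 of the 7 genes called rhythmic, and it was called in both diets. In CR it had 132 and 136 CPM at ZT2, 83.5 and 424 at ZT6, 32.6 and 56.2 at ZT10, 65.4 and 51.1 at ZT14, 106 and 93.3 at ZT18, and 310.4 and 222 at ZT22. In AL it had 418 and 244 CPM at ZT2, 199 and 126 at ZT6, 56.0 and 49.2 at ZT10, 69.1 and 42.7 at ZT14, 120.3 and 95.2 at ZT18, and 156 and 201 at ZT22. The libraries of ZT10 and ZT14 were the lowest in both diets, and none of those 8 reached 70 CPM.

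A wave of 24 h period fitted to Insig2 had an amplitude, from mean to peak, of 1.21 ± 0.25 log2 units in CR with its peak at ZT 1.13 ± 0.80 h (edgeR adjusted p = 0.0498). In AL the amplitude was 1.30 ± 0.25 with the peak at ZT 0.98 ± 0.74 h (edgeR adjusted p = 0.0355). The wave was called for 1.94% of all tested genes in CR and for 0.42% in AL. Without CR ZT6 2, picked out for its values of these genes, the CR amplitude was 1.17 ± 0.17 with the peak at ZT 22.8 ± 0.60 h. The AL amplitude was 1.30 ± 0.17 in that fit. Leaving out 1 library ended the CR call in 18 of 24 fits, with adjusted p up to 0.148, and the AL call in 7, up to 0.231 without AL ZT2 1. The difference between the diets in this wave was called for 0 genes (1005 at an unadjusted p under 0.05, 6 with DESeq2, none of them among the 7), and for Insig2 its adjusted p was 0.996 in edgeR.

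Hmgcs1 followed a similar daily course without passing the main test. Of 10 alternatives other than leaving out 1 library, its AL rhythm passed in 4, DESeq2 and the F-test over 6 time points among them. Its CR rhythm passed in 2 of the 10, the F-test and the fit with no low-count filter. Its amplitude was 0.84 ± 0.31 in CR, with the peak at ZT 1.97 ± 1.43 h (edgeR adjusted p = 0.284), and 1.24 ± 0.31 in AL, with the peak at ZT 2.46 ± 0.97 h (edgeR adjusted p = 0.197). Without CR ZT6 2, the amplitudes were 1.04 ± 0.25 in CR and 1.24 ± 0.24 in AL. Insig1 had an amplitude of 0.57 ± 0.28 in CR and 0.75 ± 0.28 in AL (edgeR adjusted p = 0.409 and 0.443). For Srebf2, Sqle, Lss and Cyp51 the amplitudes were 0.13 to 0.60 and the lowest edgeR adjusted p was 0.485, for Lss in CR. In the 4 lists of related genes above, no gene was called at any single time, and Abcg8 in CR was the only rhythm called (edgeR adjusted p = 0.0434, against 0.45 in AL and 0.932 for the difference).

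Over the 12 groups, CR ZT2 had the highest mean for 5 of the 7 genes, Srebf2 (31.5 ± 3.26 CPM), Hmgcs1 (895 ± 88.2), Sqle (102 ± 2.30), Lss (67.0 ± 24.7) and Cyp51 (262 ± 11.7; SD, n = 2 each). For Hmgcs1, Sqle and Cyp51 both libraries of CR ZT2 lay above those of the next group, CR ZT22. How many of all tested genes have their highest mean in CR ZT2 was not counted, so no background stands beside these counts. Insig2 had its highest mean in AL ZT2 (331 ± 123 CPM) and Insig1 in AL ZT22 (397 ± 296), where 1 library, AL ZT22 2C, had 606 CPM and the other 188. Of the 11 steps from each group to the next in order, the library ranges overlapped in all 11 for Srebf2 and Lss, in 10 for Sqle and Cyp51, in 9 for Insig1 and Insig2 and in 8 for Hmgcs1. Most neighbours in these orders were therefore not separated.

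Compared per length of the longest coding transcript, the 7 genes differed widely in level. Hmgcs1 stood highest in CR, at 126 ± 88.4 CPM per kb against 72.4 ± 43.2 in AL (SD, n = 12 each), and Insig1 stood highest in AL, at 80.5 ± 41.4 in CR and 88.6 ± 54.6 in AL. Insig2 followed with 52.9 ± 44.0 CPM per kb in CR and 54.9 ± 39.8 in AL. Cyp51 had 46.2 ± 17.4 in CR and 30.8 ± 8.43 in AL, Sqle 22.2 ± 10.0 in CR and 19.6 ± 7.39 in AL, and Lss 8.01 ± 5.04 in CR and 5.03 ± 2.21 in AL. Srebf2 was the lowest, 4.44 ± 1.72 in CR and 3.63 ± 0.93 in AL. Per kb, the regulator's own transcript thus averaged below those of all 4 enzymes in both diets.

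The genes most like each controller in log2 CPM over the 24 libraries were ranked among 5609 genes of at least 10 CPM, as a description. Insig2 was nearest to the clock gene Clock, with Pearson's r of 0.86, and of 0.88 without CR ZT6 2, where Clock stayed first. Clock had 32.4 CPM in CR ZT6 2 and 19.3 CPM in CR ZT6 1, and its 8 libraries of ZT10 and ZT14 were at 9.63 to 18.6 CPM. Unlike Insig2, Clock was about as low in AL ZT18, at 18.7 and 16.8 CPM. Clpx, Slc16a1, Ei24 and Slc30a10 came after it, with r of 0.84, 0.80, 0.77 and 0.76. Points of the same library share its depth and scaling.

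Insig1 was nearest to Sc5d, an enzyme of late cholesterol synthesis (r = 0.85), and then to Acly, Dhcr7, Rdh11 and Mlxipl. Among the genes nearest to Sqle were Msmo1 (r = 0.88), Dhcr7, Mvk and Rdh11. Leaving out CR ZT6 2 lowered these values: r was 0.65 for Sqle with Msmo1 and 0.46 for Sqle with Mvk. Those nearest to Srebf2 included Gabbr2 (r = 0.86, 0.81 without that library), Xrcc5, Dag1 and Acaca. Between the 7 genes, Lss followed Srebf2 (r = 0.83, 0.78 without CR ZT6 2), whereas Insig1 and Insig2 had r of 0.05 with and 0.58 without it.

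Where the genes lie bears on counting, since the libraries carry no strand. On GRCm38, Srebf2 spans chr15:82147181-82205379 and hosts the microRNA gene Mir33 in an intron, Insig1 chr5:28071363-28078662, and Sqle chr15:59315077-59331192, with no exon shared with another gene. Insig2 spans chr1:121304353-121332589 on the minus strand. Hmgcs1, at chr13:119690379-119708260, shares 557 exon bases with the antisense Gm48342. Lss, at chr10:76531588-76557138, shares 381 with the antisense 4930483K19Rik, and Cyp51, at chr5:4081145-4104746, shares 166 with Akap9 on the other strand. Reads from those bases cannot be assigned to 1 gene. Of the 50-base words in each gene's exons, at most 2.17% (Insig1) occur in transcripts of other genes.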

How the data were processed

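The authors deposited 1 table per library of unnormalized counts by gene, made from poly(A)-selected, non-stranded libraries, per the labels. Build GRCm38.p5 and the tools HTSeq, FastQC and DESeq2 are named in the submitters' processing notes, with no versions; the aligner is not given in the sources. Counted reads ranged from 13.8 to 60.8 M per library, and 1.02% to 62.2% of them lay in 363 features that collect ribosomal RNA (these features were picked with the data in view).

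Counts were tested with edgeR 4.0.16 in R 4.3.3 (TMM scaling; filterByExpr by the 12 groups; quasi-likelihood tests; Benjamini-Hochberg adjustment over 15490 genes, threshold 0.05). One model with a mean per group gave the diet average, the diets at each time and diet by time; a cosine and sine of 24 h per diet gave rhythms. Log2 CPM used a prior count of 2. The procedure was tested on simulated data. Exact intervals (Clopper-Pearson) cover counting error only. Symbols came from GENCODE M21, promoters from RefSeq.

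Members, lists and tests were chosen with earlier results of these data known. Named are the 7 genes, up to 6 called genes of smallest p per list and comparison, Scap and Srebf1, and the 5 genes most like Srebf2, Insig1, Insig2 and Sqle; enzymes named for CR ZT6 2 or as called without it were chosen after their values were seen. Not every gene under this rule is reported here; list counts and medians cover all tested genes of the list. Alternatives were DESeq2 1.42.0, its size factors, no composition factor, no filter, 1 CPM in 12 libraries, without ribosomal RNA features, a 2-fold threshold, a replicate block, an additive model, an F-test over times, each library left out, and 2 pairs of libraries left out, added after seeing the data (AL ZT22 2C and AL ZT10 1, richest in acute phase transcripts, and CR ZT6 2 and CR ZT18 2, whose male-biased genes lay between the diets).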

Additional observations from a re-analysis of the deposited data

How the results depend on the processing

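Of the 7 genes, 1 was called on the diet average. The count was 0 with no composition factor, with the replicate block, in the additive model, at 2-fold and without AL ZT22 2C and AL ZT10 1, and 3 with no low-count filter (Hmgcs1, Lss, Cyp51) and without CR ZT6 2 and CR ZT18 2; leaving out 1 library gave 0 to 3. Without AL ZT22 2C and AL ZT10 1 Insig1 changed by 0.053, against -0.17, and with 1 library left out Insig1 ran from -0.59 to 0.0057, Insig2 from -0.34 to 0.055 and Sqle from -0.37 to 0.20. Leaving out 1 library loosened the low-count filter, so that more genes were tested (16792 without CR ZT6 2), and the lone library of its group was assumed to vary like the other groups.

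At single times the count of 0 became 1 at ZT6 (Sqle), ZT10 and ZT18 (Hmgcs1) with no low-count filter, and 0 to 5 at ZT6 with 1 library left out. For diet by time it was 2 with no filter (Hmgcs1, Sqle) and 0 to 2 with 1 library left out. For the CR rhythm, the count of 1 was 0 with no composition factor, with the replicate block and without AL ZT22 2C and AL ZT10 1, 2 with no filter and in the F-test over 6 time points, and 0 to 1 with 1 library left out. For the AL rhythm it was 0 with no composition factor and without AL ZT22 2C and AL ZT10 1, 2 with DESeq2, in the F-test and without CR ZT6 2 and CR ZT18 2, 3 with no filter, and 0 to 2 with 1 library left out. Why these counts moved was not tested, beyond fewer samples or another number of tested genes.

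With replicate number as a block, Hmgcs1 changed by 0.67 (edgeR adjusted p = 0.0616) and the CR rhythm of Insig2 had an adjusted p of 0.0560; Aacs (0.0556) and Soat2 (0.0508) also passed the threshold no longer. Deviations of same-numbered libraries correlated between -0.25 and 0.51 over 55 pairs of groups, 9 of them over 0.1. Between the CR and AL groups of 1 time point they ran from -0.05 to 0.20. Whether same-numbered libraries share more than a number was not tested.

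Over all tested genes the diet average called 1960 genes, and 828 to 2708 under the alternatives. Without a composition factor the median change of all genes ran from -0.80 at ZT2 to 0.91 at ZT22, and 1637 of 1703 calls at ZT22 were higher, against 58 of 145 in the main comparison; by time, calls ranged from 14 to 282 at ZT2 (main 87), 2 to 439 at ZT6 (60), 40 to 425 at ZT10 (115), 46 to 619 at ZT14 (264), 1 to 420 at ZT18 (87), 9 to 1703 at ZT22 (145), 0 to 709 for diet by time (0), 154 to 1244 for the CR rhythm (301), 28 to 783 for the AL rhythm (65) and 0 to 295 for the rhythm difference (0). Lss with 28 reads in CR ZT6 2 was the thinnest value of the 7 genes.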
